A study of Sus scrofa with 12 samples.

Results

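Expression of 10 genes of the vasoactive peptide, prostanoid and nitric oxide systems was followed in arterial endothelial cells (ECs) exposed to low (2 dyne/cm2), physiological (30 dyne/cm2) or supra-high (80 dyne/cm2) wall shear stress (WSS), the drag of flowing fluid on the vessel wall. The genes were EDN1, ECE1, EDNRB, NPR3, ACE, PTGS1, PTGS2, PTGIS, DDAH1 and ASS1, and each was taken as the row of the count table whose pig Ensembl identifier has that symbol. All 10 were found among 21153 genes, and all 10 passed the filter on low counts. They were chosen by function with earlier results of these data known, and no threshold on the counts picked them, so their counts below are a description.

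The RNA came from primary porcine ECs of 3 donors without any genetic change, kept in DMEM with 10% fetal calf serum and heparin on 1% gelatin, and exposed to laminar flow in Ibidi slides for 48 h. Low and supra-high WSS were applied to 1 culture of each donor and physiological WSS to 2, which makes 12 libraries in 4 groups of 3. The cultures at 30 dyne/cm2 form sets 1 and 2, as the labels number them. Replicates 1, 2 and 3 are the donors PecA, PecC and PecD. Low WSS was compared with set 1 and supra-high WSS with set 2, within donor, to ask how each departure from physiological WSS changes these genes. That pairing of sets and comparisons is not spelled out in the labels. By the design text of the series, low WSS and its controls were run in VI 0.4 slides at 30000 cells per channel, and supra-high WSS and its controls in I 0.2 Luer slides at 100000 cells per channel, whereas the methods of the study give the VI 0.4 slide for all. Shear stress and slide therefore cannot be told apart between 2 and 80 dyne/cm2. With the pairing used here, sets 1 and 2 also differ in slide and cell number by that design text. Comparisons between the sets, or with the other set as control, cross slides as well. The cells are aortic by the labels and come from coronary arteries of slaughterhouse pigs by the methods. ECs were grown alone, without the smooth muscle cells on which most of these signals act, and the medium held serum.

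ECs set the tone of the underlying muscle by releasing constrictors and dilators. Endothelin-1 is made as a precursor from EDN1, is cut to its active form by endothelin-converting enzyme (ECE1), and constricts muscle through the type A receptor, while the type B receptor (EDNRB) on ECs triggers release of nitric oxide and prostacyclin and clears the peptide. Prostanoids start from arachidonic acid, which the cyclooxygenases PTGS1 and PTGS2 turn into prostaglandin H2, and prostacyclin synthase (PTGIS) turns that into prostacyclin, a dilator that also holds platelets back. Nitric oxide is made from arginine by NOS3. ASS1 helps rebuild arginine from citrulline, and DDAH1 breaks down asymmetric dimethylarginine, an inhibitor of that synthase. NPR3 is the clearance receptor for natriuretic peptides, and ACE makes angiotensin II and breaks down bradykinin. Shear stress is a classical regulator of many of these genes in ECs.

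The libraries held 29606854 to 41058902 reads on genes. Values are CPM, the reads of a gene scaled to the same total of counted reads in every library, which compare libraries for 1 gene and not genes with each other, since gene lengths were not used here. A gene was called up- or down-regulated when it changed at least 2-fold with a Benjamini-Hochberg adjusted p under 0.05 in edgeR's quasi-likelihood test with the donor as a block, over 11568 genes. Of 10 endothelial markers, 7 were matched by symbol and were expressed in all libraries, with summed CPM of 4409 to 5611 under low, 6558 to 7725 under physiological and 7930 to 8622 under supra-high WSS, and TEK and KDR were down-regulated at 2 dyne/cm2. KLF2, a flow-induced transcription factor, stood at 2.71 to 12.4 CPM at 2 dyne/cm2 and at 111 to 231 CPM in the 9 other libraries. The summed CPM of 8 fibroblast and pericyte markers was 382 to 1301 at 2 dyne/cm2, 166 to 301 in set 1, 131 to 713 in set 2 and 44.9 to 172 at 80 dyne/cm2. Among these markers 6 were tested, of which PDGFRA, PDGFRB, COL1A1 and COL3A1 were up-regulated at 2 dyne/cm2 and PDGFRA and COL3A1 were down-regulated at 80 dyne/cm2. COL1A2 (log2 fold change 0.95, adjusted p = 0.0978) and LUM (-0.05, adjusted p = 0.922) were not called at 2 dyne/cm2. RGS5 had no more than 3 counts in any library. Smooth muscle markers (8 genes) summed to 48.5 to 88.0 CPM, with DES at no more than 3 counts in every library, and 1 of the 3 tested was called, MYOCD, which was up-regulated at 2 dyne/cm2 (log2 fold change 3.55, adjusted p = 0.0104) and higher in 3 of 3 donors. Leukocyte markers (6 genes) summed to 8.17 to 27.1 CPM, with PTPRC, CD3E and LYZ at no more than 3 counts and CD68 down-regulated at 2 dyne/cm2 (log2 fold change -1.18, adjusted p = 0.00243). CD14, the only other leukocyte marker tested, was not called there (log2 fold change 0.15, adjusted p = 0.758). In bulk RNA, fewer cells of a type and less RNA per cell cannot be told apart.

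At 2 dyne/cm2, 5 of the 10 genes were called. EDN1, NPR3 and ACE were up-regulated, against 5.84% of all genes tested, and EDNRB and ASS1 were down-regulated, against 5.39%. Under supra-high WSS, EDNRB was up-regulated, against 0.666% of all genes, and NPR3 was down-regulated, against 0.510%. These 2 genes moved in opposite directions in the 2 comparisons, as did 106 of the 109 genes called in both. Between the 2 sets at 30 dyne/cm2 none of the 10 genes and 0% of all genes were called by edgeR, although 1605 genes had an unadjusted p under 0.05 and DESeq2 called 47. The CPM ranges of the 3 libraries at 2 dyne/cm2 and the 3 of set 1 did not overlap for EDN1, EDNRB, NPR3, DDAH1 and ASS1, against 36.0% of all genes, and those at 80 dyne/cm2 and in set 2 did not overlap for NPR3, against 13.9%. The 10 genes had a median log2 fold change of 0.34 under low and -0.15 under supra-high WSS, beside -0.00 and -0.02 for all genes tested.

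**Figure D1:**
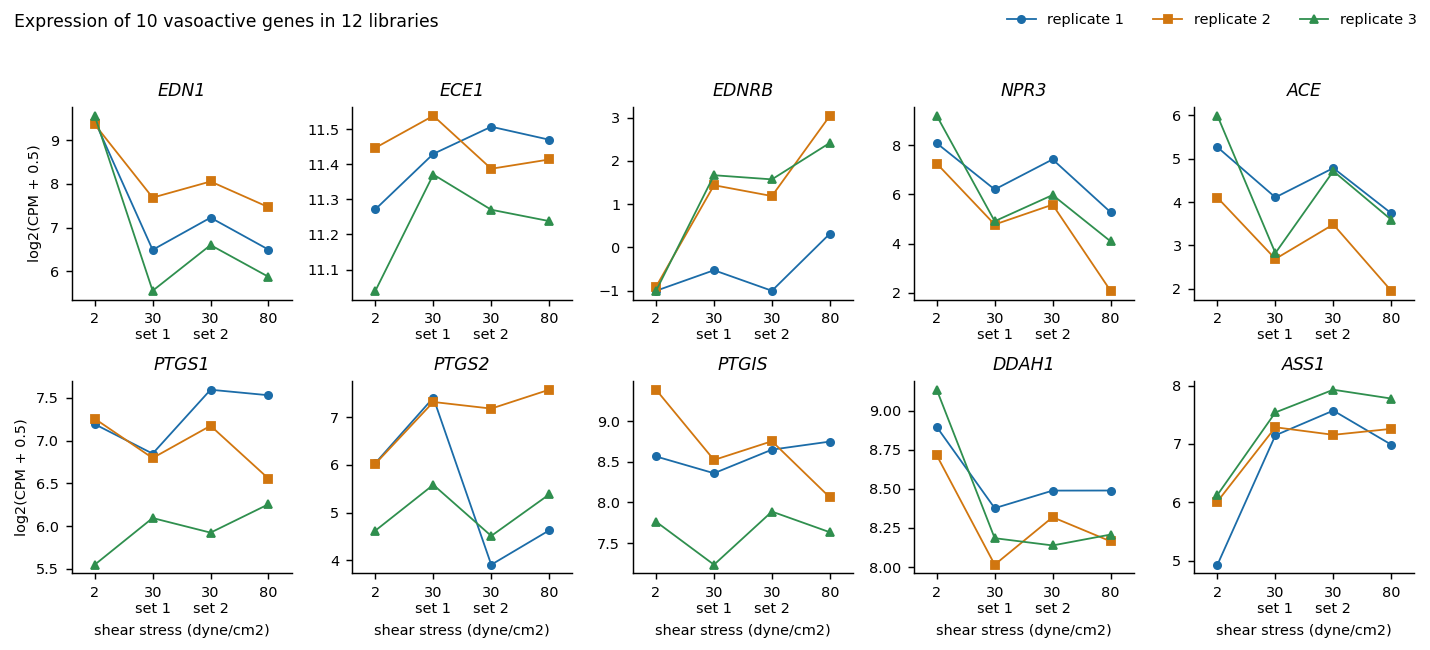
Expression of the 10 genes in all 12 libraries as log2 of CPM plus 0.5, with 1 panel per gene and its own vertical scale, shear stress on the horizontal axis and 1 line per donor. EDN1 ran from 658 to 754 CPM at 2 dyne/cm2 and stayed at or under 266 CPM in the 9 other libraries, and EDNRB had at most 1 read at 2 dyne/cm2, as it had in replicate 1 of set 2.

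EDN1 (ENSSSCG00000035598, chromosome 7, 8752018 to 8758354 of Sscrofa11.1), the precursor of endothelin-1, was up-regulated by low WSS. Its CPM was 698, 658 and 754 in replicates 1, 2 and 3 at 2 dyne/cm2. In set 1 at 30 dyne/cm2 it was 89.6, 206 and 46.6. The 3 libraries at low WSS lay close together and far above every library at 30 dyne/cm2, while the donors differed among themselves at 30 dyne/cm2, with replicate 2 highest and replicate 3 lowest in both sets. The log2 fold change was 2.99 (SE 0.38, adjusted p = 0.000407), a 7.94-fold rise, with within-donor log2 differences of 2.95, 1.68 and 4.0. Replicate 3, with the lowest control, had the widest difference, and without it the log2 fold change was 2.36, still past both thresholds. It was 2.33 against set 2.

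Under supra-high WSS EDN1 stood at 90.0, 177 and 58.3 CPM, and in set 2 at 150, 266 and 96.7. Supra-high WSS gave a lower value in 3 of 3 donors, with log2 differences of -0.73, -0.59 and -0.73, yet the ranges overlapped and the change did not pass the test (log2 fold change -0.66, SE 0.35, adjusted p = 0.289). Set 2 was itself above set 1 in 3 of 3 donors (0.66, SE 0.35, adjusted p = 0.428), and against set 1 the value at 80 dyne/cm2 was 0.00 (adjusted p = 0.998). In order of the mean, EDN1 was at 704 ± 48.3 CPM at 2 dyne/cm2, 171 ± 86.5 in set 2, 114 ± 82.3 in set 1 and 108 ± 61.3 at 80 dyne/cm2 (SD, n = 3). These SDs are between donors, and within donors set 2 was above set 1 and above 80 dyne/cm2 in 3 of 3, without passing the test.

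ECE1 (ENSSSCG00000003513, chromosome 6, 79408322 to 79465827), which cuts big endothelin to the active peptide, held nearly the same level in all libraries. Its CPM lay between 2104 and 2975 over the 12 libraries, a 1.41-fold range. The log2 fold change was -0.18 at 2 dyne/cm2 (SE 0.10, adjusted p = 0.166) and 0.00 at 80 dyne/cm2 (SE 0.10, adjusted p = 0.984). Replicate 3 at low WSS was the lowest library and replicate 2 of set 1 the highest, and the ranges overlapped in both comparisons.

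EDNRB (ENSSSCG00000009477, chromosome 11, 50073300 to 50102879), the type B endothelin receptor, was the gene with the opposite pattern. At 2 dyne/cm2 the 3 libraries held 0, 1 and 0 reads. Set 1 held 8, 73 and 91 reads, or 0.195, 2.21 and 2.68 CPM, and set 2 held 0, 57 and 95 reads, or 0, 1.78 and 2.48 CPM. The transcript was thus at the floor under low WSS, and low in replicate 1 under every condition. With 3 reads per library taken as the floor, the level at 2 dyne/cm2 was at least 18.7-fold lower than the mean of set 1 (adjusted p = 0.000546). EDNRB passed the filter on low counts through 6 libraries, of which none was at 2 dyne/cm2.

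Under supra-high WSS, EDNRB had 27, 262 and 158 reads, or 0.747, 7.75 and 4.84 CPM. It was above set 2 in 3 of 3 donors, with a log2 fold change of 1.93 (SE 0.44, 3.82-fold, adjusted p = 0.0497), although replicate 1 at 80 dyne/cm2 stayed under replicates 2 and 3 at 30 dyne/cm2, so the ranges overlapped. This call was close to the threshold. It was lost without replicate 1 (adjusted p = 0.129), without replicate 2 (0.375) and without replicate 3 (log2 fold change 2.63, adjusted p = 0.0844), against set 1 (adjusted p = 0.117) and without the donor block (adjusted p = 0.726).

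Of the other endothelin genes, EDN2, EDNRA, KEL and MME were matched and none reached the filter. EDNRA, the constrictor receptor of muscle, had at most 1 read in any library.

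NPR3 (ENSSSCG00000036201, chromosome 16, 18841540 to 18929813), which binds and removes natriuretic peptides, was the gene with the widest range among those detected everywhere, from 3.73 to 584 CPM. At 2 dyne/cm2 its CPM was 269, 152 and 584, and in set 1 it was 72.8, 26.8 and 29.5. Every library at low WSS was above every library of set 1. The log2 fold change was 3.05 (SE 0.54, 8.29-fold, adjusted p = 0.00209), with within-donor differences of 1.88, 2.48 and 4.28, and it was 2.25 without replicate 3 and 2.04 against set 2, past both thresholds each time. A long noncoding RNA shares 17272 bases of its span, and the counting is not stated to use strand.

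NPR3 fell at 80 dyne/cm2 to 38.2, 3.73 and 16.5 CPM, from 171, 47.3 and 62.2 in set 2. The groups did not overlap, and the value was lower in 3 of 3 donors, with log2 differences of -2.15, -3.50 and -1.88. The log2 fold change of -2.46 (SE 0.53, 5.50-fold lower, adjusted p = 0.0407) was the 15th in size of 11568. Set 2 was above set 1 in 3 of 3 donors, although not past the test (1.02, SE 0.50, adjusted p = 0.395). Against set 1 the fall was -1.45 (adjusted p = 0.181), and against both sets it was -1.95 (adjusted p = 0.0576). The call was also lost without replicate 1, 2 or 3 (adjusted p = 0.113, 0.280 and 0.0628) and without the donor block (adjusted p = 0.420).

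ACE (ENSSSCG00000017296, chromosome 12, 15394487 to 15414609), which makes angiotensin II, stood at 37.9, 16.7 and 63.0 CPM at 2 dyne/cm2. In set 1 it was at 16.7, 5.94 and 6.57 CPM. It was up-regulated 3.88-fold (log2 fold change 1.96, SE 0.34, adjusted p = 0.00188) and higher in 3 of 3 donors, with replicate 2 at low WSS level with replicate 1 of set 1, so that the ranges overlapped. The log2 fold change was 1.33 without replicate 3, still called. The call was lost against set 2 (0.90, adjusted p = 0.0646) and without the donor block (2.04, adjusted p = 0.0609).

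ACE stood at 12.9, 3.37 and 11.6 CPM under supra-high WSS, against 27.0, 10.7 and 25.7 in set 2. All 3 donors were lower, but the change did not pass the test (log2 fold change -1.25, SE 0.33, adjusted p = 0.0724). DESeq2 called it (adjusted p = 0.00310), as did the fit on these 6 libraries alone (adjusted p = 0.00394) and the fit without replicate 3 (adjusted p = 0.0293). Set 2 was above set 1 in 3 of 3 donors here too (1.06, SE 0.33, adjusted p = 0.249), and DESeq2 called that difference between 2 groups at the same WSS (adjusted p = 0.0491). Against set 1, ACE at 80 dyne/cm2 was at -0.19 (adjusted p = 0.786).

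EDN1, NPR3 and ACE shared an order when the 2 libraries at 30 dyne/cm2 were averaged. In 3 of 3 donors each was then highest at 2 dyne/cm2, intermediate at 30 dyne/cm2 and lowest at 80 dyne/cm2, and EDNRB had the reverse order in 3 of 3 donors. Against set 1 alone the lower part of this order did not hold for EDN1 in replicates 1 and 3 or for ACE in replicate 3, where set 1 was under the library at 80 dyne/cm2. Against set 2 alone the order of EDNRB did not hold in replicate 1, which had 0 reads both in set 2 and at 2 dyne/cm2. The summed CPM of the fibroblast and pericyte markers given above had its highest median at 2 dyne/cm2 (1020) and its lowest at 80 dyne/cm2 (99.3). Its ranges overlapped between 2 dyne/cm2 and set 2 (382 to 1301 against 131 to 713), and between 80 dyne/cm2 and both sets. The order of these sums within donors was not examined. MYOCD of the smooth muscle list had its highest values at 2 dyne/cm2, from 4.01 to 5.07 CPM against 0.0590 to 1.75 in set 1. The other tested genes of that list did not follow it. At 2 dyne/cm2 LMOD1 had a log2 fold change of -0.93 (adjusted p = 0.0306) and SMTN of 0.02 (adjusted p = 0.935). The summed CPM of the smooth muscle list was 74.4 to 88.0 at 2 dyne/cm2 and 61.9 to 85.2 in set 1. The part of these markers in the result was not tested.

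**Figure D2:**
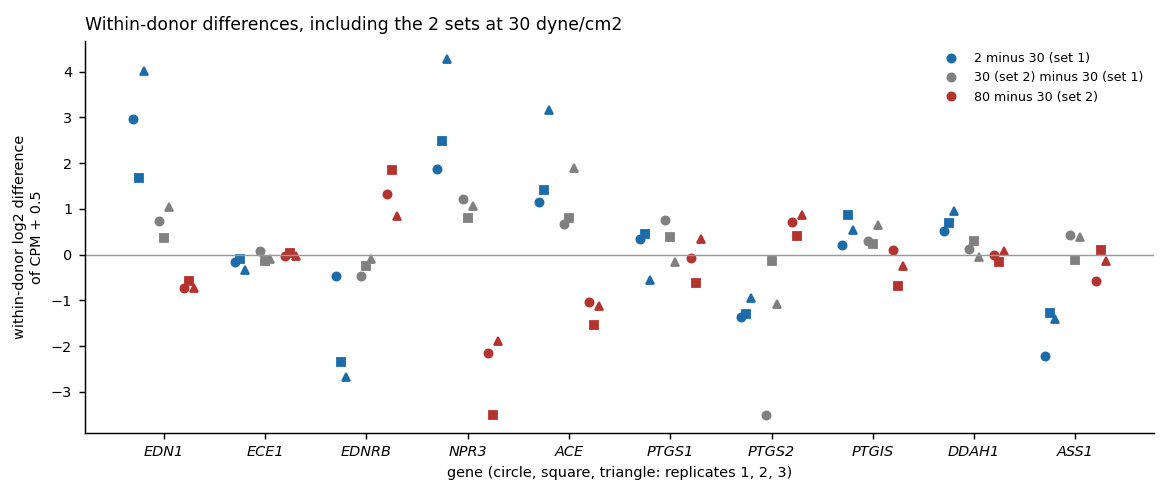
Within-donor log2 differences of CPM plus 0.5 for the 10 genes, with circles, squares and triangles for replicates 1, 2 and 3, blue for 2 dyne/cm2 minus set 1, grey for set 2 minus set 1 at the same WSS and red for 80 dyne/cm2 minus set 2. For EDN1, NPR3 and ACE all blue and grey points lay above 0 and all red points below, and for PTGS2 the grey circle, replicate 1, lay at -3.50.

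The cyclooxygenases were not called in either comparison. PTGS1 (ENSSSCG00000005533, chromosome 1, 262456106 to 262482159), the constitutive enzyme, had 146, 152 and 46.3 CPM at 2 dyne/cm2 and 115, 111 and 67.9 in set 1. It had 184, 93.6 and 75.9 CPM at 80 dyne/cm2 and 193, 144 and 60.2 in set 2. The donors differed more than the conditions, with replicate 3 lowest in all 4 groups, and the donor held 80.1% of the variance of the log2 values and the group 3.59%. The log2 fold changes were 0.11 (SE 0.22, adjusted p = 0.722) and -0.09 (SE 0.22, adjusted p = 0.842), and their sign changed with the control set.

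PTGS2 (ENSSSCG00000015579, chromosome 9, 127850164 to 127858866), the inducible enzyme, had 65.3, 64.6 and 24.1 CPM at 2 dyne/cm2 and 169, 159 and 47.4 in set 1. It was lower in 3 of 3 donors, with log2 differences of -1.37, -1.29 and -0.96, but did not pass the test (log2 fold change -1.24, SE 0.63, adjusted p = 0.147). Its CPM was 24.2, 190 and 41.2 at 80 dyne/cm2 and 14.5, 145 and 22.3 in set 2, higher in 3 of 3 donors (0.67, SE 0.63, adjusted p = 0.545). The controls differed from each other. Replicate 1 had 6958 reads in set 1 and 529 in set 2, at the same WSS, and set 2 minus set 1 was -3.50, -0.14 and -1.07 on the log2 scale in the 3 donors (log2 fold change -1.56, SE 0.67, adjusted p = 0.342).

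PTGS2 therefore turned with the control. The log2 fold change at 2 dyne/cm2 was 0.33 against set 2, and that at 80 dyne/cm2 was -0.89 against set 1. In contrast, the change at 2 dyne/cm2 was called in the fit on its own 6 libraries (-1.21, adjusted p = 0.00665) and without replicate 1 (-1.09, adjusted p = 0.0438). The RefSeq span of PTGS2 shares 5286 of its 8703 bases with PLA2G4A, the phospholipase that frees arachidonic acid, so reads of the 2 genes may not be separable there. PLA2G4A had log2 fold changes of -0.31 (adjusted p = 0.189) and 0.16 (adjusted p = 0.611).

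PTGIS (ENSSSCG00000007463, chromosome 17, 51153151 to 51200515), which makes prostacyclin, had 378, 669 and 217 CPM at 2 dyne/cm2 and 328, 367 and 150 in set 1. It was higher at low WSS in 3 of 3 donors, by less than the 2-fold threshold (1.48-fold, log2 0.57, SE 0.20, adjusted p = 0.0478), and the ranges overlapped. At 80 dyne/cm2 it had 430, 267 and 198 CPM, against 401, 431 and 236 in set 2 (-0.24, SE 0.20, adjusted p = 0.504). Set 2 was above set 1 in 3 of 3 donors for PTGIS too, without passing the test (0.37, SE 0.20, adjusted p = 0.434). Replicates 1 and 3 at 2 dyne/cm2 lay under the same donors in set 2. Replicate 3 was lowest in all 4 groups, and the donor held 68.6% of the variance and the group 13.9%. A pseudogene shares 3016 bases of its span.

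The 2 genes of arginine and dimethylarginine metabolism had opposite signs under low WSS. DDAH1 (ENSSSCG00000040735, chromosome 4, 130485305 to 130617534), which degrades the inhibitor of nitric oxide synthase, had 476, 419 and 561 CPM at 2 dyne/cm2 and 332, 258 and 290 in set 1. The groups did not overlap, and the 1.68-fold higher level (log2 0.75, SE 0.14, adjusted p = 0.00238) passed the adjusted p but not the 2-fold threshold. At 80 dyne/cm2 DDAH1 had 359, 286 and 295 CPM and in set 2 it had 359, 319 and 281, a log2 fold change of -0.01 (SE 0.13, adjusted p = 0.963).

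ASS1 (ENSSSCG00000005701, chromosome 1, 270531434 to 270586364), argininosuccinate synthase, had 30.0, 64.1 and 69.5 CPM at 2 dyne/cm2. In set 1 it had 141, 156 and 186. It was down-regulated 3.03-fold (log2 fold change -1.60, SE 0.22, adjusted p = 0.000630), with log2 differences of -2.22, -1.27 and -1.41 in the 3 donors, with all libraries at low WSS under 70 CPM and all others at 126 CPM or above. At 80 dyne/cm2 it had 126, 153 and 219 CPM against 190, 142 and 243 in set 2 (-0.22, SE 0.22, adjusted p = 0.571). In order of the mean, ASS1 stood at 192 ± 50.6 CPM in set 2, 166 ± 47.7 at 80 dyne/cm2, 161 ± 22.6 in set 1 and 54.5 ± 21.4 at 2 dyne/cm2 (SD, n = 3). The SDs are between donors, and none of the tests among the first 3 groups passed.

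**Figure D3:**
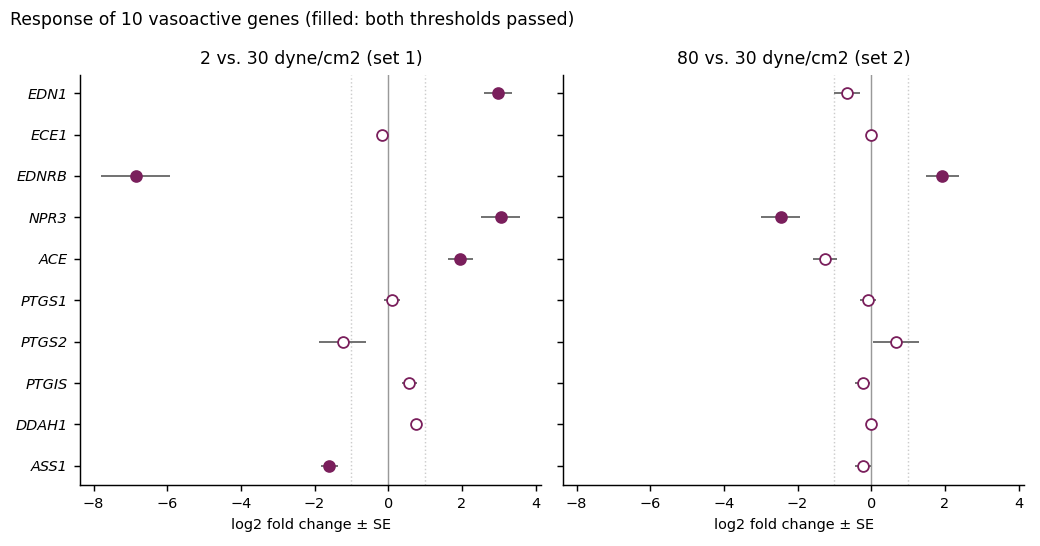
Log2 fold changes of the 10 genes with their standard errors, at 2 dyne/cm2 against set 1 (left) and at 80 dyne/cm2 against set 2 (right), with filled points for genes past both thresholds and dotted lines at a 2-fold change. At left EDN1, NPR3 and ACE lay to the right of the dotted lines and EDNRB, ASS1 and PTGS2 to the left, PTGS2 as an open point. At right only EDNRB and NPR3 were filled. The fitted value of EDNRB at 2 dyne/cm2 rests on a group at the floor and is no measure of its fold change.

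Whether the 2 responses differ was tested directly, as the change at 2 dyne/cm2 minus the change at 80 dyne/cm2. This difference passed the adjusted p for 6 of the 10 genes, against 37.1% of all genes tested. On the log2 scale it was 3.65 for EDN1 (SE 0.52, adjusted p = 0.000789), 5.51 for NPR3 (SE 0.75, adjusted p = 0.000637) and 3.21 for ACE (SE 0.47, adjusted p = 0.000961). It was 0.76 for DDAH1 (SE 0.19, adjusted p = 0.0123) and -1.38 for ASS1 (SE 0.31, adjusted p = 0.00721), and it passed for EDNRB (adjusted p = 0.000308). For ECE1, PTGS1, PTGS2 and PTGIS the difference did not pass (adjusted p = 0.319, 0.658, 0.121 and 0.0502). Without replicate 1, PTGS2 (-1.77, adjusted p = 0.0295) and PTGIS (1.10, adjusted p = 0.0492) passed as well, and PTGIS passed in DESeq2 (adjusted p = 0.0178). DDAH1 did not pass without replicate 1 (adjusted p = 0.0614), without replicate 2 (0.0648) or without the donor block (0.0512), and ASS1 did not pass without replicate 3 (0.0711) or without the donor block (0.0786).

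The wider pathways were read from 7 lists of 81 genes, of which 70 were matched by symbol and 43 were tested. At 2 dyne/cm2, 5 of the 43 genes were up-regulated, against 5.84% of all genes, 8 were down-regulated, against 5.39%, and 30 were not called. Of the 5, HPGD and PTGIR had reached the filter only through the 3 libraries at 2 dyne/cm2 and so had to differ. Of the 8, NPPB, NPPC and CALCR had reached it through libraries of which none was at 2 dyne/cm2. Under supra-high WSS 2 were up-regulated, against 0.666%, 1 was down-regulated, against 0.510%, and 40 were not called. The 3 calls at 80 dyne/cm2 (NPPC, PTGES and SLCO2A1) came down to 0 without replicate 1, 0 without replicate 2 and 0 without the donor block. The 43 tested genes had a median log2 fold change of -0.05 under low and 0.05 under supra-high WSS. By list, the median under low and supra-high WSS was -0.89 and 0.34 for natriuretic peptides, -2.30 and 0.05 for the adrenomedullin and calcitonin family, -0.13 and 0.06 for prostanoid synthesis and turnover, and 0.03 and -0.03 for nitric oxide and arginine.

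Of 6 natriuretic peptide genes tested, 2 were down-regulated at 2 dyne/cm2, and both encode ligands that NPR3 clears. NPPC, the C-type peptide of ECs, had 0.357, 0.507 and 0.0315 CPM at 2 dyne/cm2 and 27.5, 3.82 and 1.89 in set 1 (log2 fold change -4.93, SE 0.63, adjusted p = 0.000410). NPPC was also up-regulated at 80 dyne/cm2, with 58.0, 31.8 and 8.0 CPM against 13.3, 3.56 and 2.37 (2.41, SE 0.43, adjusted p = 0.0251). NPPB, the B-type peptide, had 0 reads in all 3 libraries at 2 dyne/cm2 and was at least 19.5-fold lower there than in set 1 (adjusted p of the fitted change = 0.00564). NPPB reached the filter on low counts through 5 libraries, of which none was at 2 dyne/cm2 and 1 was in set 1. Replicate 3 of set 1 held most of its reads, and without replicate 3 the bound was 9.53-fold. NPPC and NPR3 thus had opposite signs in both comparisons. NPR1, the signalling receptor of the A- and B-type peptides, was lower by less than the 2-fold threshold under low WSS (log2 fold change -0.95, adjusted p = 0.000790).

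Of the angiotensin and kinin genes, 3 of 12 matched were tested and none was called (median 0.08 and -0.16). AGT, the source of angiotensin, had at most 2 reads in any library, and AGTR1, a receptor of angiotensin II, at most 18.

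In the adrenomedullin and calcitonin family, 1 of 5 tested genes was up-regulated and 3 were down-regulated at 2 dyne/cm2, and none was called at 80 dyne/cm2. ADM, a dilator peptide, had 66.2, 65.2 and 20.8 CPM at 2 dyne/cm2 and 9.50, 6.61 and 2.03 in set 1 (log2 fold change 3.12, SE 0.18, adjusted p = 1.24e-05). Its receptor partners moved the other way, CALCRL with a log2 fold change of -2.45 (SE 0.26, adjusted p = 0.000166) and RAMP2 with -2.30 (SE 0.15, adjusted p = 2.32e-05). CALCR, the calcitonin receptor, was at the floor at 2 dyne/cm2 and at least 32.9-fold lower than in set 1 (adjusted p of the fitted change = 0.00110). In set 1 replicate 3 held 283 reads and the other 2 libraries 14 and 9, and the bound was 3.45-fold without replicate 3. CALCR reached the filter through 4 libraries, of which none was at 2 dyne/cm2 and 1 was in set 1.

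Of 9 tested genes of prostanoid synthesis and turnover, SLCO2A1 was up-regulated and PTGES down-regulated at 2 dyne/cm2, and HPGD, the third past both thresholds, was tested only through the libraries in which it was high. PTGES, which makes prostaglandin E2 from the product of the cyclooxygenases, had 4.47, 4.90 and 2.08 CPM at 2 dyne/cm2 and 7.28, 17.2 and 9.49 in set 1 (-1.52, SE 0.24, adjusted p = 0.00130). It had 17.3, 27.5 and 17.4 CPM at 80 dyne/cm2 and 8.94, 10.4 and 8.09 in set 2 (1.17, SE 0.23, adjusted p = 0.0359). The prostaglandin transporter SLCO2A1 had the reverse pattern, with 138, 122 and 115 CPM at 2 dyne/cm2, 56.6, 46.1 and 59.2 in set 1, 33.2, 38.5 and 52.1 in set 2 and 12.6, 10.5 and 21.7 at 80 dyne/cm2. Its log2 fold changes were 1.24 (SE 0.18, adjusted p = 0.000842) and -1.48 (SE 0.19, adjusted p = 0.0128).

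HPGD, which inactivates prostaglandins, and PTGIR, the prostacyclin receptor, had fitted log2 fold changes of 3.10 and 3.19 at 2 dyne/cm2. Both passed the filter on low counts only through the 3 libraries in which they were high, so that they had to differ to be tested and their p is not given. HPGD had 3.88, 1.42 and 5.38 CPM at 2 dyne/cm2, and PTGIR had 6.0, 1.72 and 3.12, while both were under 1 CPM in the 9 other libraries. The other prostanoid receptors matched did not reach the filter.

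Of 19 tested genes of nitric oxide and arginine, 1 was up-regulated and 2 were down-regulated at 2 dyne/cm2, and none was called at 80 dyne/cm2. NOS3, the endothelial synthase that uses the arginine rebuilt through ASS1, had 235, 299 and 456 CPM at 2 dyne/cm2 and 1187, 800 and 1674 in set 1 (log2 fold change -1.86, SE 0.19, adjusted p = 0.000131). GCH1, an enzyme in the making of the cofactor of the synthase, fell with it (-1.76, SE 0.14, adjusted p = 4.09e-05). Other listed genes of that cofactor did not fall with GCH1. SPR (0.999, adjusted p = 0.00214) and QDPR (0.934, adjusted p = 0.00158) were higher in 3 of 3 donors, by less than the 2-fold threshold. PTS was at -0.09 (adjusted p = 0.413). PDE5A, which breaks down the cyclic GMP made in response to nitric oxide, was up-regulated (1.30, SE 0.14, adjusted p = 0.000183). ASL, the next enzyme after ASS1, had a log2 fold change of 0.29 (adjusted p = 0.0310), and DDAH2, the other dimethylarginine hydrolase, of 0.37 (adjusted p = 0.0436).

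**Figure D4:**
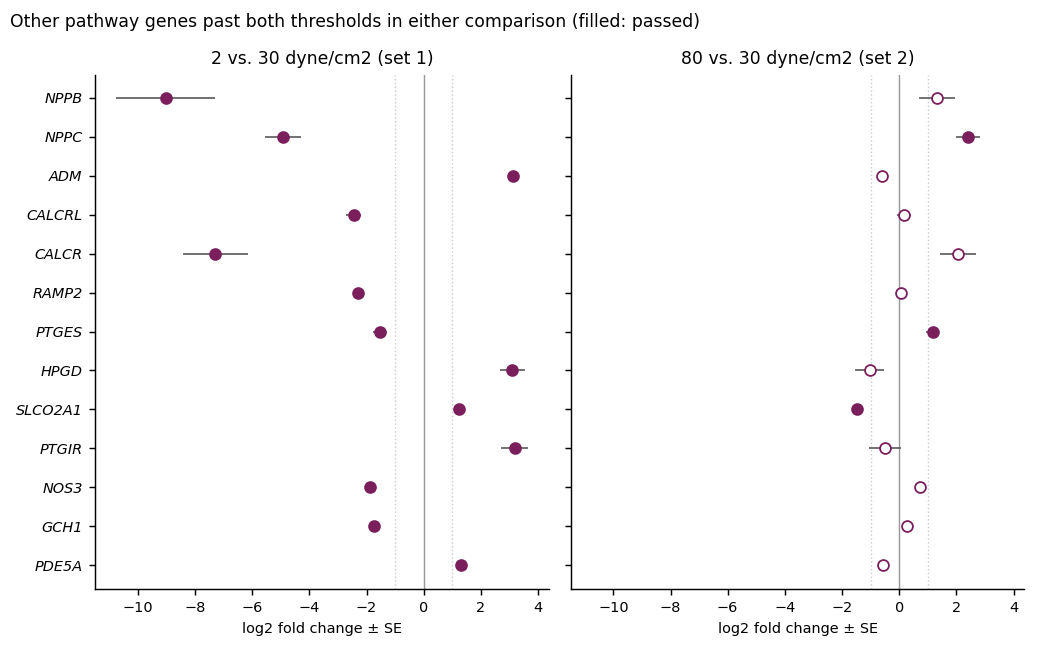
Log2 fold changes with standard errors of the 13 other pathway genes past both thresholds in either comparison, at 2 dyne/cm2 against set 1 (left) and at 80 dyne/cm2 against set 2 (right), with filled points for genes that passed. At left 8 genes lay under 0 and 5 above it, and at right NPPC, PTGES and SLCO2A1 were filled. NPPB and CALCR were at the floor at 2 dyne/cm2, so that their points at left are no measure of the fold, and HPGD and PTGIR entered only through the libraries at 2 dyne/cm2.

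The genes with the pattern most like that of a called member were sought among 7676 genes as those with the smallest mean absolute distance over the 6 within-donor log2 differences. For EDN1 they were PDE2A (0.35), FAM78B (0.39) and NDRG2 (0.40). For NPR3 they were SPARCL1 (0.50), ITIH5 (0.65) and ECM2 (0.73), and for ACE they were APOA1 (0.22), TPM1 (0.25) and TRMT9B (0.26). For ASS1 they were TSPAN5 (0.15), PROSER2 (0.16) and DOC2B (0.22), and for EDNRB they were F2, RGS16 and TMEM35A, each at 0.43. These differences share their control libraries and donors, so the likeness is a description of the 12 libraries. EDNRB had at most 1 read at 2 dyne/cm2, so its differences there depend on the 0.5 CPM added. The genes nearest to EDNRB are therefore no measure of a shared fold change.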

How the data were processed

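Total RNA of 12 EC cultures was sequenced (TruSeq, single-end, 100 nt). Per the labels, the authors mapped reads to Sscrofa11.1 (Ensembl 96) with STAR 2.4, discarded ambiguous reads, counted the rest over merged exons of protein-coding isoforms with featureCounts 1.4.6, and deposited the raw counts. Symbols were given to 14572 of 21153 genes, and positions are from RefSeq on the same assembly. The labels tie replicate numbers to donors, and after removal of group means same-numbered libraries correlated at 0.627 to 0.868 in 18 pairs. The 11568 genes that reached 1 CPM in 3 or more libraries were fitted over 12 libraries in edgeR 4.0.16 (R 4.3.3), with TMM factors and donor as a block. The SE is the log2 fold change divided by the square root of F. Within-donor differences use log2(CPM + 0.5). The study filtered at 1 RPKM, which needs gene lengths not used here. DESeq2 1.42.0 was among 13 alternatives. Separate cultures of each donor are the replicates. Genes named were the 10, listed pathway genes past both thresholds, their direct partners, and the 3 nearest in pattern. Members and lists were chosen with earlier results of these data known. The fit was tested on simulated data.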

Additional observations from a re-analysis of the deposited data

How the results depend on the processing

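With 3 donors and 6 residual degrees of freedom, the calls at 80 dyne/cm2 depended on most choices, while EDN1, NPR3 and ASS1 were called at 2 dyne/cm2 in all 13 alternatives and EDNRB in all in which it was tested. The paired analysis was the main one. Without the pairing (no replicate block), 776 genes were called at 2 dyne/cm2 instead of 1299, 1 at 80 dyne/cm2 instead of 136 and 1746 for the difference of responses instead of 4294, and none of the 10 genes and 0 pathway genes at 80 dyne/cm2. With no replicate block on the 6 libraries of each comparison, 3 of the 10 genes, 8 pathway genes and 635 genes were called at 2 dyne/cm2 and 0 in each case at 80 dyne/cm2. With the block, these 6 libraries gave 246 genes at 80 dyne/cm2 and 1 between the sets at 30 dyne/cm2, where EDNRB was not tested at 2 dyne/cm2. DESeq2 called 236 genes at 80 dyne/cm2, and between the sets 47 genes and 1 of the 10. The adjusted p alone called 4586 genes and 24 pathway genes under low and 380 genes and 5 pathway genes under supra-high WSS. For supra-high WSS against set 1, 40 genes, 1 pathway gene and 0 of the 10 were called, and against both sets 1 of the 10.

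Without 1 replicate, 826 (without replicate 3) to 1388 genes were called at 2 dyne/cm2, with 5 to 6 of the 10 genes and 11 to 13 pathway genes. At 80 dyne/cm2, 1 (without replicate 2) to 91 genes were called, 3 without replicate 1, with 0 to 1 of the 10 and 0 to 1 pathway genes. For the difference of responses, 1949 (without replicate 3) to 3299 genes were called, 2403 without replicate 1, with 5 to 7 of the 10.

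Signs changed for members that were not called. For supra-high WSS against set 1, the log2 fold change was 0.00172 for EDN1, -0.0741 for ECE1, 0.21 for PTGS1, -0.89 for PTGS2, 0.13 for PTGIS, 0.0945 for DDAH1 and 0.0135 for ASS1, and against both sets it was -0.0349 for ECE1, 0.0615 for PTGS1, -0.11 for PTGS2 and 0.0405 for DDAH1. For low WSS it was -0.19 for PTGS1 and 0.33 for PTGS2 against set 2 and -0.0401 for PTGS1 against both sets. Leaving out 1 replicate gave PTGS1 values of -0.0780 to 0.40 for low WSS, -0.30 to 0.12 for supra-high WSS and -0.19 to 0.70 for the difference, and for supra-high WSS it gave ECE1 values of -0.0397 to 0.0787, DDAH1 values of -0.0535 to 0.0323 and ASS1 values of -0.38 to 0.0479. DDAH1 was at 0.00436 for supra-high WSS in its own 6 libraries and at 0.0019 without the filter. The causes were not tested. RLE normalization, no filter and filterByExpr changed no call of the 10 genes.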
